A study of Mus musculus with 12 samples.

Results

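The response of bone marrow-derived macrophages (BMDMs) to LPS and interferon-γ (IFNγ) in the absence of *Keap1* was measured on 4 single-colour gene expression arrays, out of 12 arrays in the whole data set. The 4 arrays held RNA of M1-stimulated BMDMs, 2 from wild-type mice (WT M1) and 2 from *Keap1* flox/flox::LysM-Cre mice (KpCKO M1). All mice were C57BL/6 animals of 8 weeks, and each BMDM culture had been differentiated with M-CSF for 7 days before 6 hours of stimulation. Each group contained 1 culture from a male mouse (culture 1) and 1 from a female mouse (culture 2), so that culture and sex cannot be told apart. The other 8 arrays held untreated BMDMs (Con) and BMDMs stimulated with IL-4 (M2) of the same genotypes and cultures, and are used here only for comparison. In KpCKO mice, Cre is produced from the lysozyme M locus, which is active in cells of the myeloid lineage, and the cells of each culture were analysed in bulk. A level below is the log2 signal of a gene relative to the 75th percentile of its own array, and a difference is the KpCKO level minus the WT level on the log2 scale, averaged over the 2 cultures and followed by ± its standard error. In these bulk RNA samples, fewer cells of a type and less RNA per cell cannot be told apart.

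Keap1 is the substrate adaptor of a Cul3 ubiquitin ligase that marks the transcription factor Nrf2 for degradation. When Keap1 is lost or its cysteines are modified by electrophiles, Nrf2 accumulates, pairs with small Maf proteins and binds antioxidant response elements (AREs) near genes for glutathione synthesis, quinone reduction, NADPH supply and heme handling. LPS, acting through Toll-like receptor 4, and IFNγ, acting through its own receptor, together drive the M1 programme of cytokines, chemokines, interferon-stimulated genes and glycolytic enzymes. The comparison asks which transcripts of M1-stimulated macrophages differ when *Keap1* is deleted, whether or not M1 stimulation induces them.

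*Keap1* itself was at 4.28 and 4.80 in WT M1 and at 2.61 and 3.04 in KpCKO M1. The groups did not overlap, and the difference was -1.71 ± 0.24 (adjusted p = 0.00769). The position of the probe relative to the deleted part of the gene was not determined. Leaving out the KpCKO M1 array of culture 1 gave -1.47 with an adjusted p of 0.052.

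The 2 WT M1 arrays correlated at r = 0.985 and the 2 KpCKO M1 arrays at r = 0.986 across genes. Of the gene probes, 59.4% and 66.2% in WT M1, against 68.1% and 64.7% in KpCKO M1, were well above background. The WT M1 array of culture 2 carried a patch of low signal. In 16 adjoining blocks of the array, which held 2.99% of its spots, the block median was as low as -3.62 on the log2 scale relative to the other M1 arrays, whereas no block of any other array was below -0.41. Under the patch lay 688 of the genes tested, of which 47 were called higher and 12 lower in KpCKO M1. Results for genes under the patch are therefore given with the spots of the patch set to missing as well, an alternative chosen after seeing the data. All 9 macrophage markers with a probe (such as *Adgre1* and *Csf1r*) were well above background on all 4 arrays, with a summed level of 9.39 and 9.66 in WT and 8.97 and 9.15 in KpCKO. Of these, 4 were called lower, *Fcgr1* (-1.202), *C5ar1* (-1.27), *Itgam* (-0.65) and *Adgre1* (-0.39), and 1 higher. Stromal markers were above background as well, 6 of 6 on each array, at summed levels of 5.10 and 5.00 in WT and 5.35 and 4.54 in KpCKO. None of them was called, with differences between -2.74 and 0.18, and 1 was lower at an unadjusted limma p under 0.05. The lowest stromal difference was -2.70 in Con and -2.72 in M2. Also above background were 8 of 11 neutrophil markers in WT and 9 of 11 in KpCKO, at summed levels between 3.17 and 3.77. Of the neutrophil markers 1, *Mmp8* (2.09), was called higher. Dendritic cell markers were above background for 5 or 6 of 7, at summed levels between 2.47 and 3.16, and 1, *Xcr1* (-1.05), was called lower, and markers of B cells, T and NK cells, mast cells and erythroid cells summed to levels of -0.72 or lower on every array. The part of any other cell type in the differences was not tested.

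Keap1 loss was accompanied by differences in a large share of the genes measured. Of 22354 genes tested, 1657 (7.41%) were called higher and 1922 (8.6%) lower in KpCKO M1 at an adjusted p of 0.05. With the spots of the patch set to missing the counts were 1680 and 2006, and 3549 genes were called both ways. The balance between the directions depended on the scaling. Higher genes made up 46.3% of all calls, but 60.01% after quantile normalization and 61.7% with the percentile taken over the probes detected on all arrays. The median difference of all genes was -0.09, and -0.22 after normexp background correction, under which 532 genes were higher and 532 lower. One array changed the counts as well: with WT M1 culture 2 omitted they were 674 and 413, and with KpCKO M1 culture 1 omitted, 488 and 344. When only the 4 M1 arrays were fitted, no gene passed, although 5255 were at an unadjusted p under 0.05. A difference of more than 2-fold in both cultures was found for 508 higher genes (2.27%) and 472 lower genes (2.11%). A stricter group, used below, consisted of genes that were also called: 461 higher (2.06% of 22367 genes) and 375 lower (1.68%). The plot of the differences in culture 1 against those in culture 2 shows both groups. For the gene lists below, the shares to set beside a count are those of all genes, 7.41% higher and 8.6% lower. No list was tested against these shares.

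**Figure D1:**
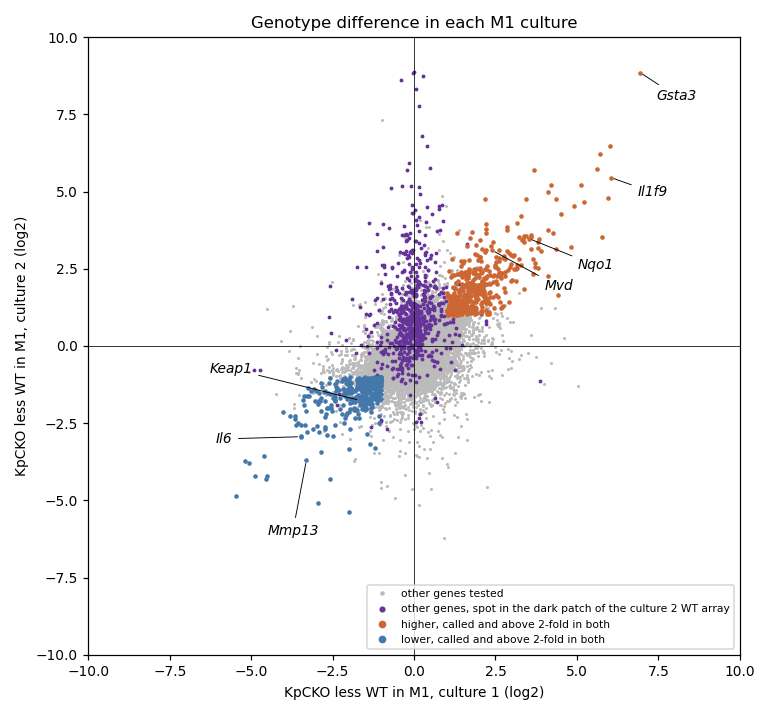
Each point is a gene. The x axis is the KpCKO minus WT log2 difference in M1 in culture 1 and the y axis that in culture 2, with the genes called and different by more than 2-fold in both cultures coloured (461 higher, 375 lower) and the other genes under the low-signal patch of 1 WT M1 array in purple. The coloured genes lie in opposite corners by construction, and the other genes under the patch, in purple, spread upwards along the culture 2 axis.

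To show the regulatory sequence near the start of genes that the results turn on, promoter windows (250 bases before to 50 after the transcription start, RefSeq annotation, GRCm38.p6) are printed 5′ to 3′ on the gene's strand for 3 genes that were among the largest gains and 2 that were among the largest losses. Motifs searched on both strands, overlaps allowed, were the ARE core (TGAGNNNGC or TGACNNNGC, where N is any base), the core of an interferon-stimulated response element (ISRE, GAAA, any pair of bases and GAAA) and a κB site (GGGA, any base and TTTCC), and capitals mark the matches.
*Gsta3*, chr1:21240335-21240634, plus strand, with an ARE core: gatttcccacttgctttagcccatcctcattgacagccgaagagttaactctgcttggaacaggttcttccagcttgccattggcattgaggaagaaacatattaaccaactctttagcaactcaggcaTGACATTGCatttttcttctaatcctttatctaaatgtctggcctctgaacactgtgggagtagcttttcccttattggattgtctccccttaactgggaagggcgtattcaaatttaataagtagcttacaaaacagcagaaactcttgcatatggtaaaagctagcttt
*Il1f9*, chr2:24186226-24186525, plus strand, with an ARE core on the opposite strand: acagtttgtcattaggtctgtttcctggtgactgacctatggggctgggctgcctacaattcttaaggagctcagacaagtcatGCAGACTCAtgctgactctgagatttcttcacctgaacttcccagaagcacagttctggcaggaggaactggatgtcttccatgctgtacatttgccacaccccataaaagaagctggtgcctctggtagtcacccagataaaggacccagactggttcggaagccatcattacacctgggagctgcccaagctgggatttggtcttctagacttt
*Nqo1*, chr8:107403156-107403455, minus strand, with no match: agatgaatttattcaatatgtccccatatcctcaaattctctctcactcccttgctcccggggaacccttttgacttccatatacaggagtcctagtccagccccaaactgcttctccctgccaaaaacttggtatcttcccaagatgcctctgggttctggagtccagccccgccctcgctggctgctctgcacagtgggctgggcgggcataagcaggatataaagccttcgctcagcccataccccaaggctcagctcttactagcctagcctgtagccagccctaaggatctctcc
*Il6*, chr5:30012864-30013163, plus strand, with a κB site: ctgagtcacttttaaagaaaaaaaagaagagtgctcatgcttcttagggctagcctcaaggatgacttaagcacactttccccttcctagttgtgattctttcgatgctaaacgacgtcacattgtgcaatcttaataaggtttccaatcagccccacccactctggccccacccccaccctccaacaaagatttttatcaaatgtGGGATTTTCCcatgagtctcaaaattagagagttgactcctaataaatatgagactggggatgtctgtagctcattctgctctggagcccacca
*Mmp13*, chr9:7272264-7272563, plus strand, with an ISRE core on the opposite strand: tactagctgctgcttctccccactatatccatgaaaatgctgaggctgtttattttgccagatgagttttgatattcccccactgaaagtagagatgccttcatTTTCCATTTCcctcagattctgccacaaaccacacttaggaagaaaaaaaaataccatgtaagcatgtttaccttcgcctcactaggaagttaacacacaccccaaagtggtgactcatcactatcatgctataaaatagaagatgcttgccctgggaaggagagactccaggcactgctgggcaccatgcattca
A gene was counted when any of its promoter windows held a match, and the number of windows per gene was not taken into account. An ARE core was found for 115 of 265 strictly higher genes with a promoter (43.4%) and for 68 of 206 strictly lower genes (33.0%). The shares were 30.8% of all 27025 genes with a promoter and 34.8% of the 11676 genes tested that had one. An ISRE core was found for 2 higher (0.755%) and 14 lower genes (6.80%), against 3.99% of all genes and 3.74% of genes tested. κB sites were rare, found for 2 higher genes (0.755%) and 1 lower gene (0.485%), against 0.466% of all genes and 0.574% of genes tested. A match is a run of letters and not a measured binding site, and a window without a match says only that these letters do not occur in it.

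Glutathione and thioredoxin genes were higher in KpCKO M1 for the most part. Of 24 tested, 14 were called higher and 1 lower, with a median difference of 1.02. With either KpCKO M1 array omitted, 9 were called higher. *Gss*, which encodes glutathione synthetase, the second enzyme of glutathione synthesis, was at -0.10 and -0.01 in WT and at 3.12 and 2.82 in KpCKO, a difference of 3.03 ± 0.20 (adjusted p = 0.000705), or 8.15-fold. The groups were far apart in both cultures. *Prdx6*, a peroxiredoxin that reduces phospholipid hydroperoxides, was at 3.25 and 3.19 against 5.84 and 5.68 (difference 2.54 ± 0.17, adjusted p = 0.000705). *Mgst2*, a microsomal glutathione transferase, differed by 2.97 ± 0.20 and *Ggt5*, a gamma-glutamyltransferase that cleaves leukotriene C4, by 2.86 ± 0.22. Both subunits of glutamate-cysteine ligase, which carries out the rate-limiting step, were higher, but by different amounts. The modifier *Gclm* was at 1.88 and 1.497 in WT and at 3.81 and 3.31 in KpCKO (1.87 ± 0.18), and the catalytic *Gclc* at 2.66 and 2.35 against 3.89 and 3.13 (1.01 ± 0.21, adjusted p = 0.0254). *Srxn1*, sulfiredoxin, which repairs oxidised peroxiredoxins, was at 5.86 and 5.94 against 7.80 and 7.59 (1.79 ± 0.22). *Slc7a11*, the cystine importer, was at 2.52 and 1.80 against 3.85 and 3.08 (1.30 ± 0.33, adjusted p = 0.0426). The calls for *Gclc* and *Slc7a11* were lost when single arrays were left out, that for *Gclm* was not. *Txnrd1*, thioredoxin reductase, did not pass (0.42 ± 0.22, adjusted p = 0.211), and *Glrx*, glutaredoxin, was the lower member (-0.83 ± 0.20, adjusted p = 0.037), a call lost with WT M1 culture 2 or either KpCKO M1 array omitted. *Gpx4*, which lies under the patch, differed by 2.60 without passing and by 0.67 (adjusted p = 0.0498) with the patch missing.

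Enzymes that reduce quinones and carbonyls or conjugate electrophiles contained the largest differences. Of 29 tested, 18 were higher and 2 lower, with a median difference of 0.80, and 11 were higher with KpCKO M1 culture 1 omitted. *Gsta3*, an alpha-class glutathione transferase, was at -2.30 and -4.43 in WT and at 4.64 and 4.43 in KpCKO (7.90 ± 0.50, adjusted p = 0.000705). Its second WT value lies under the patch, and with that spot missing the difference was 6.93 ± 0.21 (adjusted p = 0.000142), or 122-fold. *Gsta1* and *Gsta2* are near-identical and may share signal: *Gsta1* differed by 4.94 ± 0.24, whereas *Gsta2* was not well above background in WT and was at least 5.14-fold higher in KpCKO. *Adh7*, an alcohol dehydrogenase that oxidises retinol, was likewise not well above background in WT and was at least 19.5-fold higher in KpCKO. *Nqo1*, the NAD(P)H quinone oxidoreductase, was at -2.07 and -1.69 in WT and at 1.46 and 1.79 in KpCKO. This difference, 3.50 ± 0.11 (adjusted p = 6.77e-05), is an 11.3-fold change, and the groups did not overlap. *Cbr3*, a carbonyl reductase, was at 2.76 and 2.77 against 5.70 and 5.32 (2.74 ± 0.15, adjusted p = 0.000526). *Aox1*, aldehyde oxidase, was low in WT at -4.82 and -5.01 and reached -1.54 and -0.81 in KpCKO (3.74 ± 0.27, adjusted p = 0.000829). The lower members were *Gstt1*, a theta-class glutathione transferase (-0.92 ± 0.22), and the carboxylesterase *Ces1g* (-0.74), whose probe was well above background on only 1 of the 4 arrays.

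**Figure D2:**
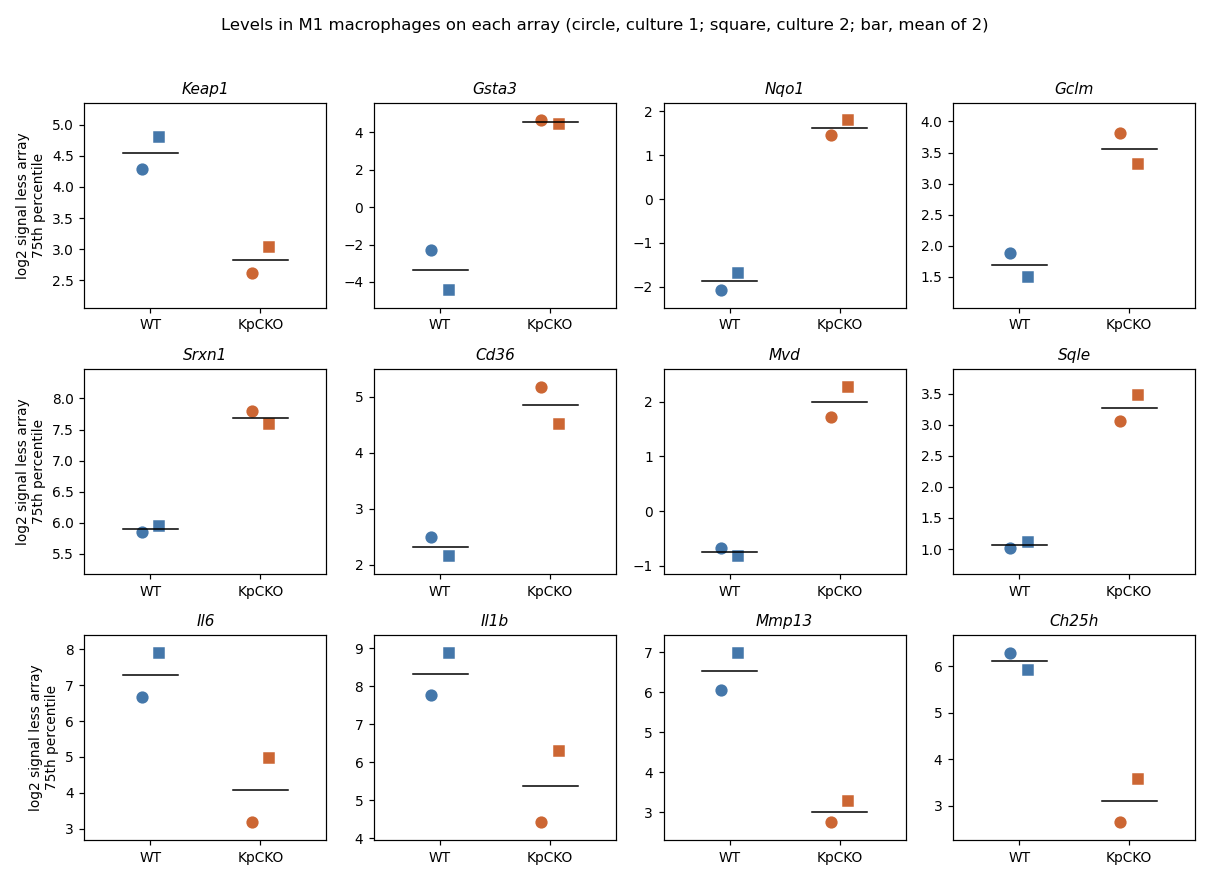
Levels of selected genes on each of the 4 M1 arrays (log2 signal relative to the array's 75th percentile), WT and KpCKO in separate columns with cultures 1 and 2 marked. Genes of antioxidant function such as *Nqo1* (-2.07 and -1.69 in WT, 1.46 and 1.79 in KpCKO) are higher in both KpCKO cultures and cytokine genes such as *Il6* (6.66 and 7.90, against 3.18 and 4.96) are lower in both.

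Among 12 genes of NADPH supply, 5 were higher and none lower (7 and 1 at an unadjusted p under 0.05), with a median difference of 0.53. With WT M1 culture 2 or KpCKO M1 culture 1 omitted, 3 were called higher. *Me1*, the malic enzyme of the cytosol, was at -0.40 and -0.78 in WT and at 1.42 and 1.35 in KpCKO (1.97 ± 0.11, adjusted p = 0.000551). *Taldo1*, transaldolase of the pentose phosphate pathway, was already at 7.13 and 7.17 in WT and reached 8.51 and 8.40 (1.30 ± 0.11). *Idh1*, *Tkt* and *Idh2* differed by 1.07, 0.66 and 0.54. *G6pdx*, which commits glucose 6-phosphate to that pathway, did not pass (0.09 ± 0.15, adjusted p = 0.717).

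Heme and iron genes gave 8 higher and 1 lower of 20, with a median difference of 0.38. With KpCKO M1 culture 1 omitted 4 were called higher, and with either WT M1 array omitted, 5. *Slc48a1*, the transporter that moves heme out of the phagolysosome, was at 3.28 and 2.36 in WT and at 5.58 and 4.79 in KpCKO (2.37 ± 0.19, adjusted p = 0.00125). *Slc11a1*, a phagosomal metal exporter also known as Nramp1, and *Tfrc*, the transferrin receptor, differed by 1.56 ± 0.21 and 1.46 ± 0.20. The lower member was *Cp*, ceruloplasmin, an oxidase of ferrous iron (-1.84 ± 0.38, adjusted p = 0.0245), and this call was lost with WT M1 culture 2 or KpCKO M1 culture 1 omitted. *Hmox1*, which encodes heme oxygenase 1 and is a commonly used Nrf2 target, stood apart from these genes. Its levels were 6.21 and 5.78 in WT and 6.79 and 4.92 in KpCKO, so that the groups overlapped and the cultures differed in direction (-0.14 ± 0.32, adjusted p = 0.781, 95% interval -0.89 to 0.61).

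Of 12 genes encoding Keap1, Nrf2 and their partners, 2 were higher and 3 lower, against 7.41% and 8.6% of all genes tested. The median of the list was -0.05 and turned positive, to 0.06 and 0.03, under quantile normalization and under the percentile over detected probes. *Sqstm1*, the autophagy receptor p62 that competes with Nrf2 for Keap1, was higher (1.12 ± 0.20, adjusted p = 0.0167), as was the small Maf gene *Mafg* (0.61 ± 0.15). Besides *Keap1*, *Nfe2l2*, which encodes Nrf2, was at 6.51 and 6.51 in WT and at 6.03 and 5.76 in KpCKO (-0.62 ± 0.16, adjusted p = 0.0455), and *Mafk* differed by -0.41 ± 0.11. With KpCKO M1 culture 1 omitted no member of this list was called, and with WT M1 culture 2 omitted 1 was, lower.

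The higher and lower genes were also sorted by their response to M1 stimulation. M1-induced genes, 3188 in number, were those more than 2-fold higher in M1 than in Con in both WT cultures. The WT M1 arrays enter both this class and the genotype difference, so the classes describe the genes and test nothing. Of the 461 strictly higher genes, 26 were M1-induced and 435 (94.4%) were not, against 85.7% of all genes. The 435 genes differed by a median of 1.78 between the genotypes. Between Con and M1 their median change was -1.25 in WT and -0.43 in KpCKO, and 281 of them were called lower in M1 than in Con in WT. At the median these transcripts changed less with M1 stimulation in KpCKO than in WT. Of the 375 strictly lower genes, 260 (69.3%) were M1-induced, against 14.3% of all genes, with a median change from Con to M1 of 3.30 in WT and 2.02 in KpCKO, and 115 were not.

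The higher genes outside the lists varied in function. *Cgnl1*, a protein of cell junctions, was at -1.88 and -2.23 in WT M1 and at 1.72 and 1.30 in KpCKO M1 (3.57 ± 0.17, adjusted p = 0.000326), after a change from Con to M1 of -3.67 in WT and -2.05 in KpCKO. The 5 probes for this gene gave differences between 0.95 and 3.71. *Slc43a2*, a carrier of large neutral amino acids, was at -2.31 and -3.41 against 0.9999 and 0.03 (3.37 ± 0.26, adjusted p = 0.00103). It changed by -4.92 on M1 stimulation in WT and by -1.68 in KpCKO, and its genotype difference was only 0.13 in Con and 0.18 in M2, although the test of M1 against these missed the threshold (adjusted p = 0.0504 and 0.0509). *Fam13a*, a protein linked to lipid metabolism, was at -5.05 and -4.56 in WT and at 0.90 and 0.22 in KpCKO (5.36 ± 0.35). *Cd5l*, a secreted scavenger-receptor protein of tissue macrophages also called AIM, was high in both genotypes, at 4.47 and 3.64 in WT and 7.90 and 7.20 in KpCKO (3.50 ± 0.12, adjusted p = 6.9e-05). *Prl2c5* and *Prl2c3*, members of the prolactin family, differed by 6.26 ± 0.20 and 5.95. These paralogs are near-identical in sequence and their probes may share signal. *Akap6*, an anchoring protein for protein kinase A, and *Slc36a2*, a proton-coupled amino acid carrier, rose from levels between -5.61 and -4.95 in WT to levels between -2.08 and -1.74 in KpCKO. *Layn*, a hyaluronan receptor, and *Slc22a23*, a solute carrier, each differed by 3.59, and the uncharacterised *A530064D06Rik* by 3.75. *Oit3*, *Olfr1510*, *Ceacam10* and *Cdon* were not well above background in WT, and were at least 9.88-fold, 6.93-fold, 6.82-fold and 6.36-fold higher in KpCKO.

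A group of 26 strictly higher genes was M1-induced. Of all 3188 M1-induced genes, 52 were called higher and 953 lower, and the others were not called. *Il1f9*, which encodes the interleukin-1 family ligand IL-36γ, was at -4.53 and -4.36 in WT and at 1.52 and 1.09 in KpCKO (5.75 ± 0.51, adjusted p = 0.00164), or 53.9-fold. *Tnfsf4*, the ligand of the T cell receptor OX40, was at -3.63 and -3.48 against 0.58 and 1.74 (4.71 ± 0.25, adjusted p = 0.000448). *Ednrb*, an endothelin receptor, was at 0.50 and -0.84 against 4.86 and 3.93 (4.57 ± 0.34, adjusted p = 0.000927). For each of these the genotypes were several log2 units apart in both cultures. The difference was called in Con and in M2 as well, at 3.47 and 2.88 for *Ednrb*. *Il1f9* and *Tnfsf4* were called higher there too, but in WT *Tnfsf4* was well above background on no Con or M2 array and *Il1f9* on 1 Con array and no M2 array, so that no size is given.

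Cholesterol synthesis and uptake genes were higher as a group. Of 22 tested, 19 were called higher and none lower, the median difference was 1.51, and both KpCKO arrays were above both WT arrays for 20 of 22, which holds for 20% of all genes. Counts of higher members ranged from 14 to 18 when 1 M1 array was left out, and 11 were called without the replicate block. *Mvd*, mevalonate diphosphate decarboxylase, was at -0.68 and -0.83 in WT and at 1.72 and 2.27 in KpCKO (2.75 ± 0.21, adjusted p = 0.000965). *Fdft1*, squalene synthase, was at 0.73 and 0.43 against 2.75 and 2.95 (2.27 ± 0.20), and *Sqle*, squalene epoxidase, at 1.01 and 1.11 against 3.06 and 3.48 (2.21 ± 0.23, adjusted p = 0.00304). The groups did not overlap for any of these enzymes. *Pmvk*, phosphomevalonate kinase (0.55), and *Srebf2*, the gene for SREBP-2 (0.42), were among the 3 members that did not pass. The third went the other way: it differed by -0.53, was lower in both cultures and was at an unadjusted limma p under 0.05. The same genes had median differences of 0.76 in Con and 0.40 in M2, with 4 and 1 called higher, and no member passed the test of the M1 difference against either. For 17 of 22 the smaller of the M1 differences of the cultures was above both Con and both M2 differences. The M1 difference was larger in culture 2 than in culture 1 for 19 genes, against 2 in Con and 4 in M2. The share of all genes for which either of these statements holds was not determined, and stimulus and slide cannot be told apart. Neither count therefore shows a trait particular to these genes or to M1. *Ch25h*, which oxidises cholesterol to 25-hydroxycholesterol, a sterol that blocks processing of SREBP-2, was lower: its levels were 6.29 and 5.93 in WT M1 and 2.64 and 3.57 in KpCKO M1 (-3.00 ± 0.32, adjusted p = 0.00308). Whether the one bears on the other was not tested.

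**Figure D3:**
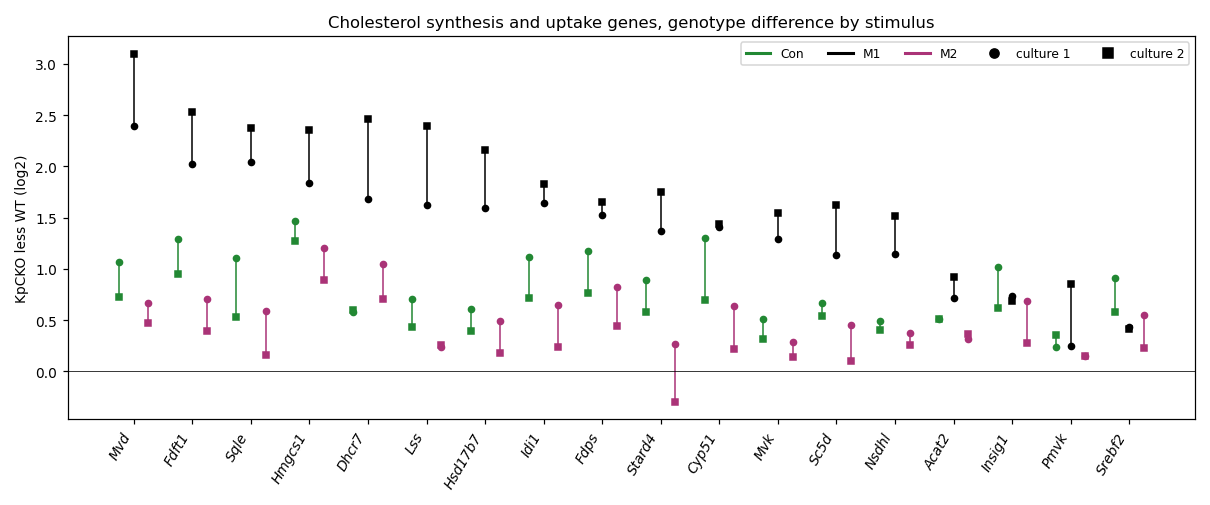
KpCKO minus WT log2 difference of 18 of the 22 cholesterol genes in Con, M1 and M2, with 1 point per culture. In M1 all points of these 18 genes lie above 0, and the median difference of all 22 is 1.51, against 0.76 in Con and 0.40 in M2. The 1 member with a negative M1 difference (-0.53) is not among the 18.

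Scavenger and lipid handling genes gave 5 higher and 2 lower of 23, with a median of -0.08 that turned positive under quantile normalization (0.11) and normexp (0.19). *Cd36*, a receptor for oxidised lipids and fatty acids, was at 2.49 and 2.15 in WT and at 5.18 and 4.51 in KpCKO (2.53 ± 0.17, adjusted p = 0.00073). *Scarb1*, the receptor for high-density lipoprotein, differed by 0.99 ± 0.25, and *Mylip*, a ubiquitin ligase, by 0.66 ± 0.18. *Lipa*, lysosomal acid lipase, and *Npc1*, which moves cholesterol out of lysosomes, lie under the patch. With those spots missing *Lipa* remained called (1.64, adjusted p = 0.00475) and *Npc1* did not (0.69, adjusted p = 0.0679). *Msr1*, the class A scavenger receptor, was lower instead, at 4.30 and 4.81 against 2.74 and 3.21 (-1.58 ± 0.22), as was the acyl-CoA synthetase *Acsl1* (-0.60). With KpCKO M1 culture 1 omitted the list gave 1 higher and 1 lower gene, and with WT M1 culture 2 omitted 2 and 1.

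Interleukin and TNF family ligands were lower for the most part. Of 21 tested, 13 were called lower and 1, *Il1f9*, higher, and the median difference was -1.27. With WT M1 culture 2 omitted 6 were called lower, and with KpCKO M1 culture 1 omitted, 8, and 7 were after normexp. *Il6*, a cytokine of the acute phase response, was at 6.66 and 7.90 in WT and at 3.18 and 4.96 in KpCKO (-3.21 ± 0.49, adjusted p = 0.0101). *Il1b*, which encodes pro-interleukin-1β, was at 7.78 and 8.88 against 4.42 and 6.31 (-2.96 ± 0.23, adjusted p = 0.00103), and *Il1a* at 2.31 and 2.62 against -0.56 and -0.82 (-3.15 ± 0.25, adjusted p = 0.00121). In each of the 3 genes both KpCKO values were below both WT values, and for *Il6* and *Il1b* culture 2 was higher than culture 1 in both genotypes. *Csf3*, granulocyte colony-stimulating factor, was at -3.06 and -3.15 against -6.01 and -8.23 (-4.02 ± 0.69), with the probe well above background on only 1 KpCKO array. *Il1rn*, the antagonist of the interleukin-1 receptor, was lower along with the agonists (-1.92 ± 0.33, adjusted p = 0.0152). *Tnf* did not pass: it was at 8.12 and 8.20 in WT and at 7.72 and 7.59 in KpCKO (-0.50 ± 0.38, adjusted p = 0.387, 95% interval -1.41 to 0.40). *Ifnb1*, interferon-β, did not pass either (-1.23, adjusted p = 0.121).

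Chemokines were mixed. Of 22, 7 were lower and 2 higher, with a median difference of -0.51, and 4 were lower with WT M1 culture 2 omitted or with KpCKO M1 culture 1 omitted. *Ccl4*, an attractant of monocytes and T cells, was at 6.13 and 6.59 in WT and at 3.41 and 4.28 in KpCKO (-2.51 ± 0.28), and its neighbour *Ccl3* differed by -2.08 ± 0.22 (adjusted p = 0.00301). *Ccl12*, a ligand of Ccr2, was at 3.73 and 4.44 against 0.62 and 1.74 (-2.90 ± 0.44, adjusted p = 0.00962). The higher ones were *Cxcl3*, which attracts neutrophils, at -0.53 and -0.04 against 1.69 and 2.55 (2.41 ± 0.47, adjusted p = 0.0209), and *Cxcl14* (1.01 ± 0.16). Neither was called higher with WT M1 culture 2 or KpCKO M1 culture 1 omitted, or without the replicate block. The IFNγ-induced *Cxcl9* and *Cxcl10*, both near level 9 in WT, differed by -0.47 (adjusted p = 0.379) and -0.60 (adjusted p = 0.646).

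Antiviral interferon-stimulated genes all had a negative difference, but the number called depended on single arrays. Of 36 tested, 17 were called lower and none higher (34 and none at an unadjusted p under 0.05), the median difference was -1.38, and 36 of 36 were below 0. The count was 7 after quantile normalization, 12 with the percentile over detected probes and 6 after normexp. With single arrays omitted it was 4 (WT M1 culture 1), 1 (WT M1 culture 2), 0 (KpCKO M1 culture 1) and 29 (KpCKO M1 culture 2). *Isg15*, a ubiquitin-like modifier, shows the spread: it was at 7.15 and 7.77 in WT and at 5.24 and 6.94 in KpCKO (-1.37 ± 0.35, adjusted p = 0.0428). *Usp18*, which removes Isg15, was at 5.52 and 6.90 against 2.63 and 5.13 (-2.33 ± 0.52, adjusted p = 0.0305), and *Slfn1*, a Schlafen family gene, differed by -3.04 ± 0.65. In these genes the KpCKO array of culture 1 was the lowest of the 4. *Ifit1*, which binds foreign RNA, did not pass (-1.67 ± 0.49, adjusted p = 0.0603). The list had a median difference of -1.44 in Con, with 7 called lower, and of -0.68 in M2, with none (16 lower at an unadjusted p under 0.05).

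Of 35 genes of IFNγ response and antigen presentation, 9 were lower and none higher, with a median difference of -0.39. With 1 M1 array omitted 2 to 4 were lower, and 3 were after quantile normalization and 4 after normexp. *Cd86* and *Cd80*, the costimulatory ligands for CD28 on T cells, were lower in both cultures. *Cd86* was at 4.56 and 4.46 in WT and at 1.89 and 2.45 in KpCKO (-2.34 ± 0.16, adjusted p = 0.000705), and *Cd80* at -0.84 and -0.70 against -2.24 and -2.15 (-1.42 ± 0.11, adjusted p = 0.00113). *Ido1*, which degrades tryptophan, was at -0.35 and 0.84 against -3.33 and -1.75 (-2.79 ± 0.51, adjusted p = 0.017). *Cd74*, the invariant chain of MHC class II, was highly expressed and fell by less (-0.79 ± 0.16). The transcription factor *Irf1* (-0.13) did not pass.

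NF-κB family genes and early targets gave 8 lower and none higher of 23, with a median of -0.65. With 1 M1 array omitted, the number lower was between 1 (WT M1 culture 2) and 4 (WT M1 culture 1). *Rel*, the c-Rel subunit, was at -1.32 and -0.84 in WT and at -3.21 and -2.32 in KpCKO (-1.69 ± 0.25, adjusted p = 0.00883), whereas *Rela*, the p65 subunit, differed by -0.09 without passing. *Dusp2*, a phosphatase of MAP kinases, differed by -2.08 ± 0.43, *Ier3*, an immediate early gene, by -1.31 ± 0.20 and *Traf1*, a signalling adaptor, by -1.01 ± 0.26. *Nfkbiz*, the nuclear IκBζ, lies under the patch and was called lower only with its spot missing (-1.72, adjusted p = 0.0259).

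Inflammatory effector and inflammasome genes gave 7 lower and 1 higher of 26, with a median of -0.40, and 3 or 4 lower when 1 M1 array was left out, 3 after quantile normalization and 2 after normexp. *Nos2*, the inducible nitric oxide synthase, was at 0.44 and 0.41 in WT and at -0.87 and -1.28 in KpCKO (-1.50 ± 0.18, adjusted p = 0.00488). *Slc7a2*, a carrier of its substrate arginine, was at 2.29 and 2.86 against 0.70 and 1.38 (-1.53 ± 0.21). *Casp4* and *Nlrp3*, which encode an inflammatory caspase and an inflammasome sensor, differed by -0.96 and -0.83. *Alox5ap*, which presents arachidonic acid to 5-lipoxygenase, was the higher member (0.88 ± 0.13), though not with KpCKO M1 culture 1 omitted, and *Ptgs2*, cyclooxygenase 2, did not pass (-1.36 ± 0.54, adjusted p = 0.127). *Arg1* was called lower (-1.18), but its probe was well above background on none of the 4 M1 arrays.

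Among 19 Toll-like receptor and adaptor genes, 7 were lower and none higher, with a median of -0.29, and 1 was lower with KpCKO M1 culture 1 omitted and 2 with WT M1 culture 2 omitted. *Cd14*, the coreceptor for LPS, was at 7.39 and 7.89 in WT and at 5.99 and 6.63 in KpCKO (-1.33 ± 0.12), whereas *Tlr4* itself did not pass (0.34). The receptors for nucleic acids *Tlr7*, *Tlr8* and *Tlr3* differed by -1.35 ± 0.22, -1.25 ± 0.28 and -1.02 ± 0.27.

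Among genes well above background on all 4 M1 arrays, the largest loss was that of *Mmp13*, the collagenase 3 gene, which M1 stimulation induces, at 6.06 and 6.99 in WT and at 2.75 and 3.28 in KpCKO (-3.51 ± 0.32, adjusted p = 0.00181). *Has1*, a hyaluronan synthase, was at -1.52 and -0.93 against -5.00 and -3.86 (-3.20 ± 0.35, adjusted p = 0.00336), and *Satb1*, a chromatin organiser, at -0.997 and -0.84 against -3.48 and -3.77 (-2.71 ± 0.28). These genes were lower in both cultures with no overlap of the groups. *Nr4a1*, an immediate early nuclear receptor, differed by -2.78 ± 0.48 on levels that were themselves about 2 log2 units higher in culture 2. *Fxyd2* (-3.08), a regulator of the sodium pump, *Kdr* (-2.71 ± 0.62), a receptor for VEGF, *Hpgd* (-2.68 ± 0.67), which inactivates prostaglandins, and *Gm6377* (-2.84) were also lower. The calls for *Kdr* and *Hpgd* were lost when single arrays were left out. *Cstdc2*, *Rfx6*, *Bnipl*, *Adamts20*, *Olfr1248* and *Gimap5* were not well above background in KpCKO, and were at least 11.8-fold, 4.90-fold, 4.67-fold, 3.73-fold, 3.08-fold and 2.99-fold lower. Of these, *Bnipl* lies under the patch and was lower with the spot missing as well. The separate probes for *Cdon*, *Oit3*, *Rfx6*, *Bnipl* and *Adamts20* disagreed in size.

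Glycolytic and HIF-1 genes were lower where they were called. Of 20 tested, 10 were lower and none higher, and the median difference was -0.52 in M1, -0.06 in Con and -0.03 in M2. In Con 4 members and in M2 3 were called lower, and no member passed the test of the M1 difference against either. With 1 M1 array omitted 7 to 11 were lower, and 1 was higher with WT M1 culture 1 omitted and after quantile normalization. *Hif1a*, the oxygen-regulated transcription factor, was at 4.13 and 4.31 in WT and at 3.27 and 3.23 in KpCKO (-0.97 ± 0.13). *Pdk1*, which inhibits pyruvate dehydrogenase, was at 0.81 and 1.25 against -0.50 and 0.00 (-1.28 ± 0.11, adjusted p = 0.00161), and *Slc16a3*, a lactate exporter, at 6.91 and 6.93 against 5.58 and 5.77 (-1.24 ± 0.10, adjusted p = 0.00125). Differences of about this size were also found for *Bnip3*, a mitophagy receptor (-1.23 ± 0.08), *Pfkl*, a phosphofructokinase (-0.996 ± 0.10), and *Ldha*, lactate dehydrogenase (-0.76). *Eno1*, enolase, lies under the patch and was at a difference of 0.44 as measured and of -0.64 (adjusted p = 0.0236) with its spot missing.

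Of 18 ATF4 and unfolded protein response genes, 6 were lower and 1 higher, with a median of -0.38, and none was called with WT M1 culture 2 omitted or with KpCKO M1 culture 1 omitted. *Psat1*, of serine synthesis, and *Hspa5*, the chaperone BiP of the endoplasmic reticulum, differed by -1.27 ± 0.26 and -1.01 ± 0.19, and *Trib3*, a pseudokinase, was higher by 1.45 ± 0.38. IL-4 programme genes gave 4 lower and 1 higher of 21, with a median of -0.46. Over all genes tested 8.6% were lower and 7.41% higher. *Mrc1*, the mannose receptor, was at 1.85 and 1.499 in WT and 0.66 and 0.11 in KpCKO (-1.28 ± 0.14, adjusted p = 0.00377), and *Cish*, an inhibitor of cytokine signalling, differed by -1.05 ± 0.10. The higher member was *Egr2*, an early growth response factor, at 2.79 and 1.70 against 4.88 and 3.77 (2.08 ± 0.48, adjusted p = 0.0334), a call lost with WT M1 culture 2 or KpCKO M1 culture 1 omitted.

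Lysosomal genes gave 4 higher and none lower of 23, with a median of 0.21, with none called when KpCKO M1 culture 1 was omitted and 1 when WT M1 culture 2 was. They were *Atp6v0d2*, a subunit of the proton pump (2.16 ± 0.40), *Ctsd*, cathepsin D (0.50), *Neu1*, a sialidase (0.47), and *Gusb*, β-glucuronidase (0.40). Cell cycle genes gave 1 higher and 3 lower of 21, with a median of 0.11 that was -0.07 after normexp, and none was called lower with WT M1 culture 2 or KpCKO M1 culture 1 omitted. Of these, *Ccnd2*, cyclin D2, was at 6.15 and 6.52 in WT and at 3.73 and 5.29 in KpCKO (-1.82 ± 0.39, adjusted p = 0.0276). Heat shock genes gave 1 higher, *Hsf1* (0.38), and 1 lower, *Hspa8* (-0.66), of 14, against 7.41% higher and 8.6% lower over all genes tested. The call for *Hsf1* was lost with any 1 M1 array omitted, and with WT M1 culture 1 omitted 6 were lower. None of 27 proteasome genes and none of 23 respiratory chain genes passed in limma (2 and 3 at an unadjusted p under 0.05), and their medians were -0.05 and 0.04. The proteasome median was positive under quantile normalization (0.15) and under the percentile over detected probes (0.03).

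**Figure D4:**
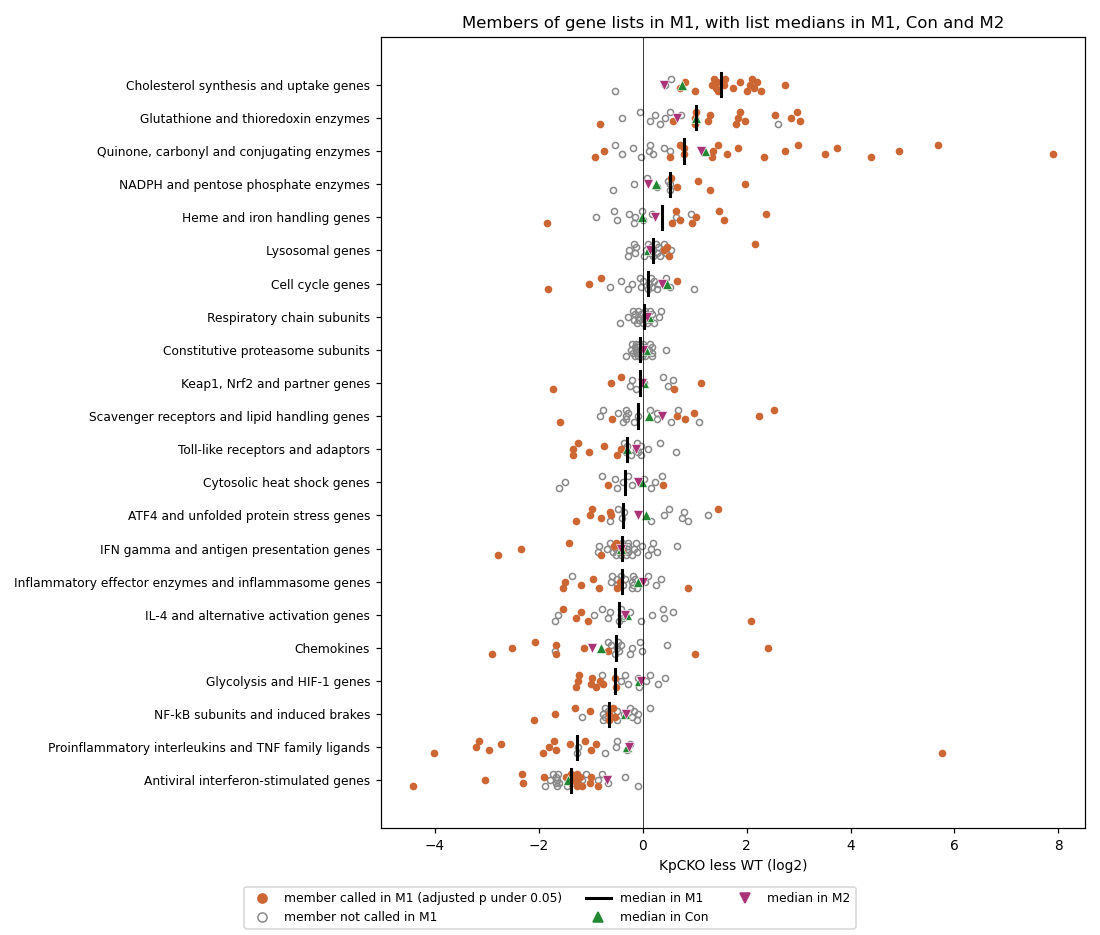
Each row is a gene list with the KpCKO minus WT log2 difference in M1 of its members as points, filled where called, a bar for the median in M1 and triangles for the medians in Con and M2. Lists of cholesterol, glutathione and quinone genes lie to the right (medians 1.51, 1.02 and 0.80), those of interleukins and antiviral genes to the left (-1.27 and -1.38), and proteasome and respiratory chain genes around 0.

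The genotype differences in M1 were compared with those in Con and M2, which were measured on other arrays of the same mice. The differences share no array, but the calls share an estimate of each gene's spread, taken from all 12 arrays. In Con 310 genes were called higher (1.39%) and 185 lower (0.827%), and in M2 287 (1.28%) and 144 (0.644%). Of the Con genes, 231 of 310 higher (74.5%) and 116 of 185 lower (62.7%) were called the same way in M1, and of the M2 genes 207 of 287 (72.1%) and 92 of 144 (63.9%). Read from M1, 13.9% and 12.5% of its 1657 higher genes were called higher in Con and in M2, and 6.04% and 4.79% of its 1922 lower genes were called lower. The 461 strictly higher genes had a median difference of 1.77 in M1, 0.82 in Con and 0.75 in M2, and 423 of them had the same sign in Con and 421 in M2. The 375 strictly lower genes had medians of -1.50, -0.45 and -0.37, with the same sign for 300 in Con and 294 in M2. More calls in M1 than elsewhere do not show that the differences themselves depend on the stimulus, and stimulus and slide cannot be told apart, since each slide held the 4 arrays of 1 stimulus.

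**Figure D5:**
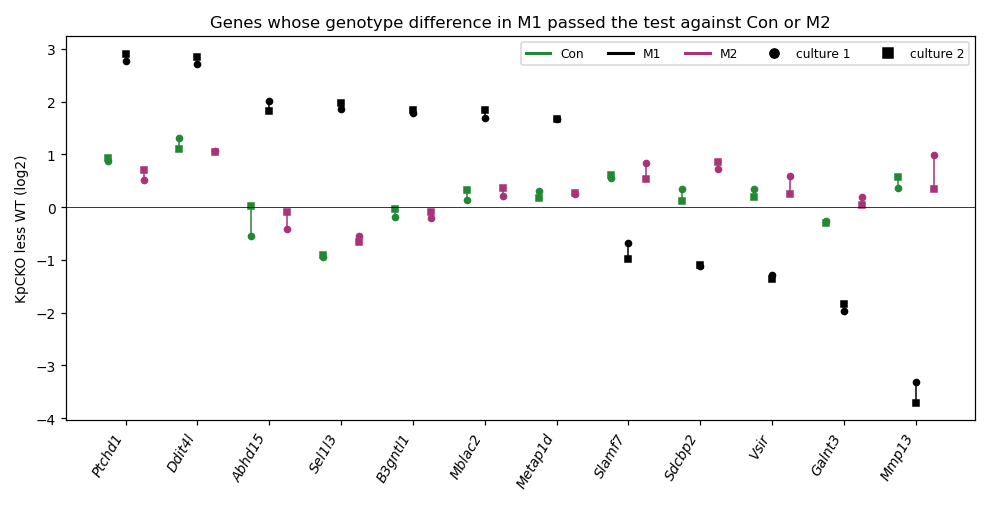
KpCKO minus WT log2 difference in Con, M1 and M2, with 1 point per culture, for genes whose M1 difference was called different from that in Con or M2. Drawn are the largest in each direction among genes with a symbol and well above background on all arrays compared. Called genes at background in a group, such as *Adh7* and *Rfx6*, are left out. *Mmp13*, at the far right, is at a mean of 0.46 in Con, 0.67 in M2 and -3.51 in M1.

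*Nqo1* differed between the genotypes by 3.23 in Con, 3.50 in M1 and 3.52 in M2. The test of the difference itself found few genes. In 16 of 22354 genes (0.0716%) the genotype difference in M1 was called different from that in Con, 10 of them with a more positive value in M1 (0.0447%) and 6 with a more negative one (0.0268%). Against M2 there were 22 (0.0984%), 10 more positive (0.0447%) and 12 more negative (0.0537%). These counts were between 0 and 568 under the alternatives and are given with the limits. *Mmp13* was called against M2, with a difference of differences of -4.17 (adjusted p = 0.0476), and missed the threshold against Con (-3.97, adjusted p = 0.0504). *Ptchd1*, a membrane protein of the patched family, was at -2.61 and -2.27 in WT M1 and 0.15 and 0.64 in KpCKO M1, a difference of 2.84 against 0.90 in Con and 0.61 in M2. *Ddit4l*, a relative of the mTOR inhibitor Ddit4, was at -3.14 and -3.32 against -0.42 and -0.48, a difference of 2.78 against 1.21 and 1.05. *Vsir*, which encodes the inhibitory immune receptor VISTA, was at 4.01 and 4.47 against 2.72 and 3.11, a difference of -1.33 against 0.26 and 0.42. For these 3 genes the M1 difference was called different from both others.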

How the data were processed

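RNA of 12 BMDM cultures was labelled for single-colour 4x44K mouse arrays. The deposited intensity values are the processed signals of the authors' Feature Extraction software, background-subtracted and not normalized between arrays, and the deposited series table of log2 values served as an alternative. Signals of gene probes were converted to log2 and the 75th percentile of each array was subtracted. Probes were named through platform annotation and RefSeq, 26690 of 41174 with 1 symbol, and a gene was represented by its brightest probe. Genes detected well above background in both cultures of any group were fitted in limma 3.58.1 (R 4.3.3) on all 12 arrays with group and culture as terms and Benjamini-Hochberg adjustment, threshold 0.05. Every adjusted p printed is from this fit or an alternative of it. With 2 arrays per group, their number limits the precision.

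The pairing by culture comes from the design text, and same-culture deviations correlated at 0.162 to 0.597 over 15 pairs of groups. Mice were separate animals, and arrays of the same mouse under different stimuli entered the limma fit as independent. The p-values rest on the spread left after group and culture were fitted, shared over the arrays of all stimuli. A shift between the cultures that is common to all groups is therefore not part of that spread. A bound ("at least N-fold") divides the bright group's mean by that of the dim group, where each dim array takes its own signal or the weakest detected signal on that array, whichever is higher. M1-induced genes were detected on both WT M1 arrays, and WT M1 exceeded WT Con by more than 2-fold in each culture. Scripts were tested on simulated data. Named genes are, outside lists, those with the largest differences among genes called and changed more than 2-fold in both cultures, 15 measured on all 4 M1 arrays and 6 at background on 1 side per direction, the 15 largest gains among genes not M1-induced, and, in each list, up to 4 per direction; genes called in the comparison with Con or M2 and members shown because they did not pass were named too. *Gclm*, *Gclc*, *Srxn1*, *Idh2*, *Mylip*, *Slc7a11*, *Cbr3*, *Hif1a*, *Ldha*, *Il1rn*, *Nlrp3*, *Isg15*, *Nfkbiz*, *Gpx4* and *Eno1* were chosen after their values were seen. The members and lists were chosen with earlier results of these data known. Promoters are RefSeq windows, whereas the array files name build mm9, so no coordinate was taken from the files. Alternatives changed scaling, filter, probes, block, arrays and the low-signal patch. Some genes are not reported here by name.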

Additional observations from a re-analysis of the deposited data

Results flagged for a closer look

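Genes whose genotype difference in M1 was called different from that in Con or M2 by the interaction test in limma are given here as values, since the effect differed between stimuli. Stimulus and slide cannot be told apart. Against Con, with an adjusted p of 0.048 each, the M1 difference was larger by 2.85 for *Sel1l3*, 1.94 for *Ptchd1*, 1.93 for *B3gntl1*, 1.57 for *Ddit4l*, 1.53 for *Mblac2* and 1.43 for *Metap1d*, and it was -1.59 relative to Con for *Vsir* (adjusted p = 0.0486). Against M2 it was larger by 2.53 for *Sel1l3*, 2.23 for *Ptchd1*, 2.17 for *Abhd15*, 1.96 for *B3gntl1*, 1.73 for *Ddit4l*, 1.48 for *Mblac2* and 1.41 for *Metap1d*. In the other direction against M2, the values were -4.17 for *Mmp13*, -2.02 for *Galnt3*, -1.89 for *Sdcbp2*, -1.75 for *Vsir* and -1.51 for *Slamf7*. Adjusted p values against M2 ranged from 0.0292 to 0.0484.

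*Adh7*, *Bnipl*, *Cdon*, *Cstdc2*, *Gimap5* and *Rfx6* passed against Con as well (adjusted p = 0.048), and all but *Gimap5* against M2, with adjusted p values of 0.0292 for *Adh7* and *Bnipl*, 0.0329 for *Cdon*, 0.0428 for *Cstdc2* and 0.0193 for *Rfx6*. These genes were not well above background in 1 genotype, so no size is given.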

How the results depend on the processing

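Each group held 2 arrays, so that every call rests on the spread shared across all 12 arrays, and the number of arrays limits the precision. Among single genes under an alternative, 8632 checks kept their side of the threshold, 892 lost the call and 151 gained it. No gene called as reported changed direction. For genes not called the direction was not compared, and some changed it, as *Eno1* did with the low-signal patch missing. The 1657 higher and 1922 lower genes became 532 and 532 with normexp, 669 and 524 without the replicate block, 461 and 375 with the added 2-fold rule, 0 and 0 when only the 4 M1 arrays were fitted in limma (5255 at an unadjusted p under 0.05), and 0 and 0 by the methods' t-test after Benjamini-Hochberg adjustment (1195 and 1534 unadjusted). Without a filter 1053 were higher. Leaving out 1 M1 array gave 488 to 1590 higher and 344 to 2038 lower genes, the lowest with KpCKO M1 culture 1 omitted, followed by the WT M1 array of culture 2 (674 and 413). Higher genes were 56.1% of calls without the replicate block, 62.0% with WT M1 culture 2 omitted and 58.7% with KpCKO M1 culture 1 omitted. *Keap1* (-1.71) lost its call with only the M1 arrays (adjusted p = 0.159) and ranged from -2.01 to -1.42 when 1 array was left out. Without the replicate block the lists gave 1 antiviral, 3 IFNγ, 2 NF-κB, 3 effector and 1 Toll-like receptor gene lower, 4 heme genes higher, and no ATF4 or lysosomal gene called. Genes more than 2-fold higher in both cultures numbered 508 (246 with normexp) and lower 472 (307 with normexp, 997 without a filter, 214 with every KpCKO array against every WT array and no replicate block). With culture 1 or 2 alone they were 998 to 1038 higher and 895 to 1070 lower. Genes whose M1 difference was called different from Con, 16, were 2 with quantile normalization, 25 with the deposited log2 table, 60 with the filter on all 4 M1 arrays, 1 with the mean of probes, 1 with mouse as a random block, 108 with a trended variance, 27 with the low-signal patch missing, and 0 with normexp (1746 unadjusted), without a filter (4323) and with only the arrays compared (2905). Those different from M2, 22, were 46, 84 and 145 with quantile normalization, the stricter filter and the trend, 42 with every probe, 10 without the replicate block, 14 with mouse as a block, 5 with the mean of probes, 4 without a filter, and 0 with normexp (1986 unadjusted) and with only the arrays compared (2914). Without 1 array they were 2 to 537 (Con) and 2 to 568 (M2), highest with WT M1 culture 1 omitted. The cause of these shifts was not tested.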
